A study of Mus musculus with 8 samples.

Results

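Of the 15917 genes in the count table of cultured mouse eosinophils, 34 encoded the constitutive proteasome or the chaperones that assemble its base. They were the protein-coding genes whose symbol was Psma, Psmc or Psmd followed by a number, or Psmb1 to Psmb7 (a rule on names alone, set with earlier results of these data known). The annotation held 35 such genes, and the remaining one, Psma8, a testis-specific alpha subunit, was not analysed here. The 34 genes fell into 7 alpha-ring and 7 beta-ring genes of the core particle, 6 genes of the ATPase ring, 3 other base subunits (Psmd1, Psmd2 and Psmd4), 8 lid genes and 3 base chaperones (Psmd5, Psmd9 and Psmd10).

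The proteasome degrades proteins tagged with ubiquitin. Its core is a barrel in which the outer alpha rings form the gate and the inner beta rings carry the protease sites, contributed by Psmb5 (chymotrypsin-like), Psmb6 (caspase-like) and Psmb7 (trypsin-like). The regulatory particle caps this barrel: its ATPase ring unfolds substrates, its other base subunits hold ubiquitin receptors, and its lid carries the deubiquitinase Psmd14. Interferon-γ is known to induce Psmb8, Psmb9 and Psmb10, which take the catalytic places in newly built particles and give the immunoproteasome, and the cap PA28 (Psme1 and Psme2). The transcription factor NRF1, encoded by Nfe2l1, is known to drive the constitutive subunit genes together when proteasome activity falls short.

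The cells were blood eosinophils of C57BL/6 mice, cultured for 18 h, with 2 libraries in each of 4 groups. E1 cells received 15 ng/mL of both IFN-γ and TNF-α, and the CN cells of that experiment received no cytokine. In the other experiment, E2 cells received IL-5, GM-CSF and IL-4 at 10 ng/mL with 30 ng/mL of IL-33, and E0 cells received 10 ng/mL of IL-5 alone. The protocol names the IL-5 transgenic line NJ.1638, in which T cells make IL-5 and eosinophils are abundant, whereas the genotype label of all 4 groups reads WT, and which holds was not settled. Cells positive for CD90 or B220 were removed with beads, and purity was above 97% on stained cytospins. The labels give no age or sex.

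Library totals ran from 60809057 to 95065752 counts, and levels are given below as CPM, the counts scaled to a common library size (TMM). The labels call the replicates duplicates without saying that they came from separate animals, so the p-values measure the spread between these libraries, which may be technical in part. In every group Y-linked transcripts were found in replicate 1 and Xist in replicate 2. Eif2s3y had 71.4 CPM or more in replicate 1 and 0 in replicate 2. Xist had 0.193 CPM or less in replicate 1 and 796 CPM or more in replicate 2. The 2 libraries of a group thus came from different animals, and their spread also contains a difference of sex. The eosinophil label was met by Siglecf (701 to 1004 CPM over the 8 libraries) and Ccr3 (1191 to 2590 CPM), and all 9 eosinophil markers were above 3 counts in every library. The rest ran lower: Prg2 94.5 to 509 CPM, Ear6 102 to 240, Il5ra 51.8 to 77.7, Epx 7.87 to 74.4, Ear1 6.96 to 250, Ear2 9.61 to 112 and Prg3 1.99 to 32.3. All of these but Ear6 were lowest in an E2 library. Epx also differed between the E0 libraries, with 53.1 and 23.5 CPM. Genes from marker lists of other blood cells also had counts. The summed level was 2515 to 6900.0 CPM for 8 monocyte and macrophage markers and 558 to 2328 CPM for 9 neutrophil markers. It was 204 to 257 CPM for 2 platelet markers and 10.6 to 28.4 CPM for 5 basophil and mast cell markers. For 4 B cell markers it was 21.5 to 38.6 CPM and for 4 NK cell markers 6.13 to 39.6 CPM. For 2 T cell markers it was 2.07 to 3.70 CPM. For 5 erythroid markers it was 17.2 to 39.6 CPM in the replicate 1 libraries and 0.913 to 3.50 CPM in the replicate 2 libraries. A few genes made up most of the monocyte and macrophage and of the platelet sums. Adgre1 had 1796 to 2883 CPM, Csf1r 400 to 817 CPM and Itga2b, of the platelet list, 200 to 252 CPM. Ly6c2 had 4214 and 3784 CPM in E1 and at most 105 CPM elsewhere. Cd14, C1qb, C1qc, Mrc1 and Cd68 had at most 33.8 CPM, and Gp1bb at most 6.51 CPM. Whether these transcripts came from other cells was not tested. No marker that was measured stood at 0 in all libraries, Mrc1 and Hbb-bt being at 0 in 1 library each.

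All 34 genes passed the filter on low counts. Per kilobase of exon, their mean levels in CN ran from 3.57 ± 0.16 CPM per kilobase for the base chaperone Psmd9 to 68.8 ± 6.27 for the beta subunit Psmb3 (SD, n = 2). By class, the median level in CN was 46.1 CPM per kilobase in the beta ring, 43.0 in the other base subunits, 38.8 in the alpha ring, 27.8 in the ATPase ring, 22.9 in the lid and 5.98 among the base chaperones, which act during assembly and are not part of the finished particle. Psmb3, Psmb4 (62.6 ± 7.21) and Psmb5 (59.6 ± 9.58), the top of this order, did not differ beyond their spread. The order among the higher genes depends on the exon length used: with the exons of the full annotation, a length chosen after seeing the data, Psmb3 ranked 11 rather than 1, while Psmd9 and Psmd5 were the lowest with both lengths.

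The comparison of E1 with CN asked which of these transcripts differed after IFN-γ and TNF-α. The genes of the alpha ring rose: 6 of 7 were called higher in E1. Outside this ring, Psmb4 of the beta ring and Psmd8 of the lid rose. No gene of the ATPase ring, of the other base subunits or of the base chaperones was called in this fit, which has no term for the replicate. An alternative fit with that term called genes of every class higher: 7 alpha, 7 beta, 3 ATPase, 1 other base, 4 lid and 1 base chaperone genes. It called 17.5% of all genes higher. The counts that follow are from the fit without it. In all, 8 of the 34 genes were higher and 0 lower by edgeR's quasi-likelihood test at a Benjamini-Hochberg adjusted p below 0.05, where 9.19% of all 15913 genes tested were higher and 8.08% lower. The median log2 fold change was 0.22 over the 34 genes and -0.01 over all genes. At an unadjusted p below 0.05, 13 of the 34 were higher and 0 lower, and DESeq2 called 11 and 0 and limma-voom 8 and 0. Of all the genes each tested, DESeq2 called 10.8% higher and 9.45% lower, and limma-voom 9.39% and 8.14%. In bulk samples such as these, fewer cells of a type and less RNA per cell cannot be told apart.

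**Figure D1:**
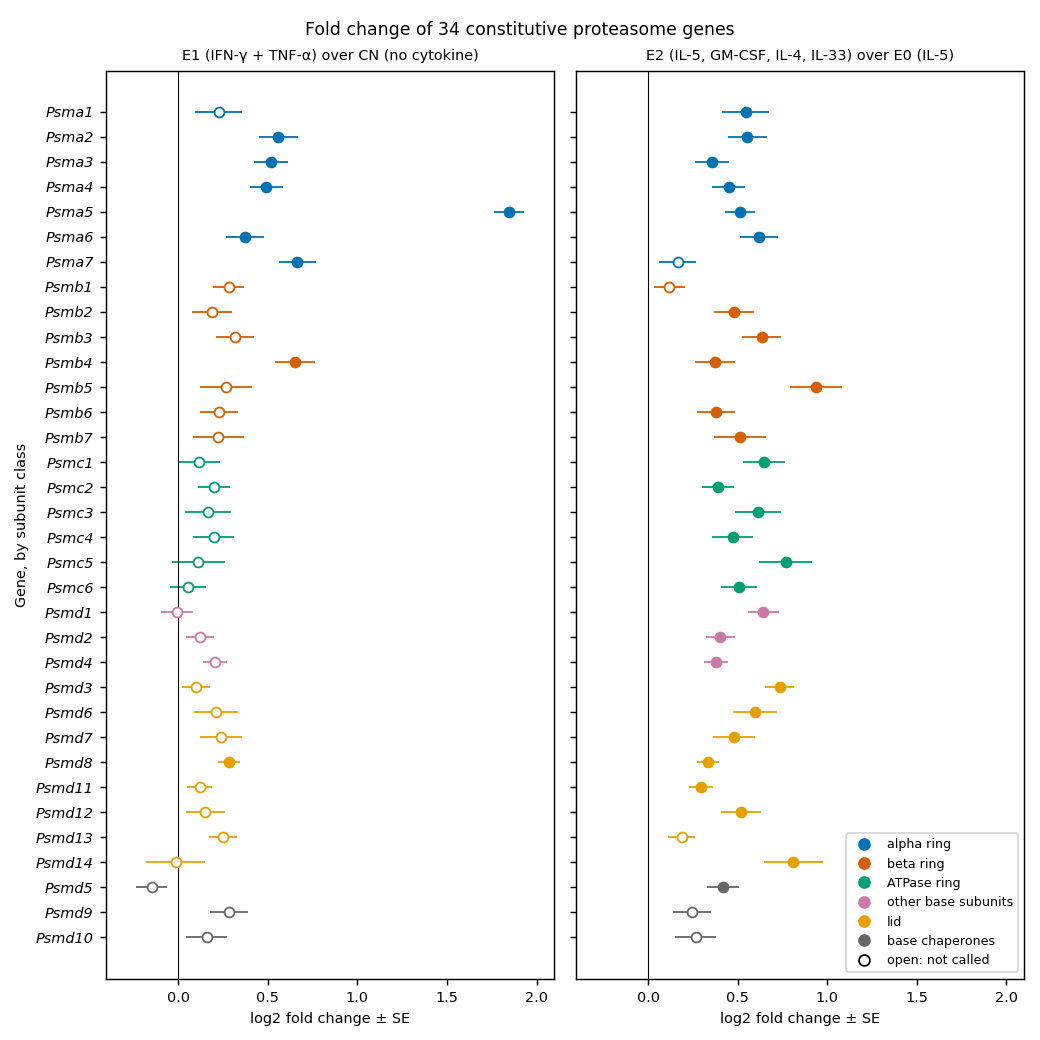
Log2 fold change (x axis) of each of the 34 genes (y axis, by subunit class) in E1 over CN (left) and in E2 over E0 (right). Points are edgeR estimates with their standard errors as bars, filled where the adjusted p is below 0.05: 8 genes on the left, led by Psma5 at 1.85, and 29 on the right, led by Psmb5 at 0.94.

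The largest change was in Psma5 (ENSMUSG00000068749, chromosome 3, 108256926 to 108279974, plus strand), an alpha subunit of the gate ring. It had 138 and 122 CPM in E1, against 36.5 and 35.9 CPM in CN. Both E1 libraries stood far above both CN libraries, a log2 fold change of 1.85 ± 0.08 (SE) or 3.59-fold (edgeR, adjusted p = 2.52e-06). Per kilobase of the basic exon set, Psma5 ranked 1 of the 34 genes in E1 and 16 in CN. Processed pseudogenes resemble its transcript at 97.5% identity or more over long stretches, Gm8394 and Gm12989, and they held 2.40 and 1.25 counts for every 100 of Psma5 over the 8 libraries.

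Psma7 (chromosome 2, 180036374 to 180042433), also of the alpha ring, had 119.7 and 96.0 CPM in E1, against 71.4 and 64.6 CPM in CN. The groups did not overlap, and the change was 0.67 ± 0.10 on the log2 scale (adjusted p = 0.00254). Psma2, Psma3 and Psma4 rose 1.47-fold, 1.43-fold and 1.41-fold. Psma6 rose 1.30-fold with an adjusted p of 0.0453, and this call was lost without each of 7 of the 8 libraries, E1 replicate 2 being the exception. Psma1 was not called: it had 84.5 and 71.2 CPM in E1, against 73.0 and 60.1 CPM in CN, so that the groups overlapped (0.23 ± 0.13, adjusted p = 0.311). Within each replicate number its E1 value was the higher.

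In the beta ring, Psmb4 (chromosome 3, 94884093 to 94886961), a subunit without protease activity, had 129 and 104 CPM in E1, against 80.1 and 68.0 CPM in CN. It rose 1.57-fold with no overlap (0.65 ± 0.11, adjusted p = 0.00473). With a term for the replicate all 7 beta genes were called higher, where 17.5% of all genes were. In the fit without it, the 6 beta genes other than Psmb4, the constitutive catalytic subunits among them, had log2 fold changes of 0.19 to 0.32 and were not called. Psmb5 had 73.0 and 55.9 CPM in E1, against 59.6 and 47.5 CPM in CN (0.27 ± 0.15, adjusted p = 0.267). Psmb6 had 46.5 and 39.7 CPM in E1, against 39.5 and 34.1 CPM in CN (0.23 ± 0.11, adjusted p = 0.197). Psmb7 had 51.0 and 38.3 CPM in E1, against 42.0 and 34.4 CPM in CN (0.23 ± 0.14, adjusted p = 0.354). For Psmb5 and Psmb7 the lower E1 library lay below the higher CN library, and for Psmb6 both E1 libraries lay above both CN libraries by a narrow margin. Within each replicate number Psmb5, Psmb6 and Psmb7 were each higher in E1.

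Psmd8, a lid subunit, had 95.2 and 89.6 CPM in E1, against 76.8 and 75.2 CPM in CN. It rose 1.22-fold with no overlap (0.28 ± 0.06, adjusted p = 0.0161), and the call was lost without CN replicate 2 and without E1 replicate 1. The 6 ATPase genes lay between 0.06 and 0.20, the 3 other base subunits between -0.01 and 0.21, the lid between -0.01 for Psmd14 and 0.28 for Psmd8, and the base chaperones between -0.15 and 0.28, on the log2 scale. At an unadjusted p below 0.05, 0 ATPase genes, 1 other base subunit and 1 base chaperone were higher, and DESeq2 and limma-voom called 0 in all 3 classes. Psmd5, a base chaperone, was the only one of the 34 genes with both E1 libraries (24.0 and 23.4 CPM) below both CN libraries (27.6 and 25.0 CPM), and it was not called (-0.15 ± 0.09, adjusted p = 0.313).

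Summed over a class, the alpha ring had 687 and 584 CPM in E1, against 422 and 375 CPM in CN, a ratio of means of 1.60. The ratio was 1.28 for the beta ring, 1.14 for the lid, 1.11 for the ATPase ring, 1.09 for the other base subunits and 1.03 for the base chaperones. The regulatory particle, 17 genes, summed to 1081 and 958 CPM in E1, against 961 and 870.1 CPM in CN. These sums overlapped between the groups, but the E1 sum was the higher within each replicate number. In 17 of the 34 genes both E1 libraries lay above both CN libraries, as they did in 26.5% of all genes, in 16 the groups overlapped, and in 1, Psmd5, both lay below, as they did in 27.5% of all genes.

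Within these groups the 34 genes moved with the replicate. In E1, 34 of 34 were higher in replicate 1 than in replicate 2, with a median log2 ratio of 0.20, and in CN 30 of 34 were (median 0.17), while the median over the 13285 genes at 1 CPM or more was 0.04 in E1 and 0.01 in CN. Leaving out 1 library at a time gave 5 (without CN replicate 2) to 11 (without E1 replicate 2) genes called higher in E1. In each of those fits 5 of the 8 calls were made: Psma3, Psma4, Psma5, Psma7 and Psmb4. Psma2 was lost without CN replicate 2. The neutrophil markers summed to 901 and 558 CPM in E1, against 1878 and 1624 CPM in CN, with 1 of 9 called higher and 5 lower. The monocyte and macrophage markers summed to 6900.0 and 6434 CPM in E1, against 2909 and 2635 CPM in CN, with 3 of 8 higher, Ly6c2 by far the most, and 1 lower. The part of these markers in the proteasome result was not tested. The replicate was given a term in an alternative fit, which called 23 of the 34 genes higher in E1, where 17.5% of all genes were higher.

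**Figure D2:**
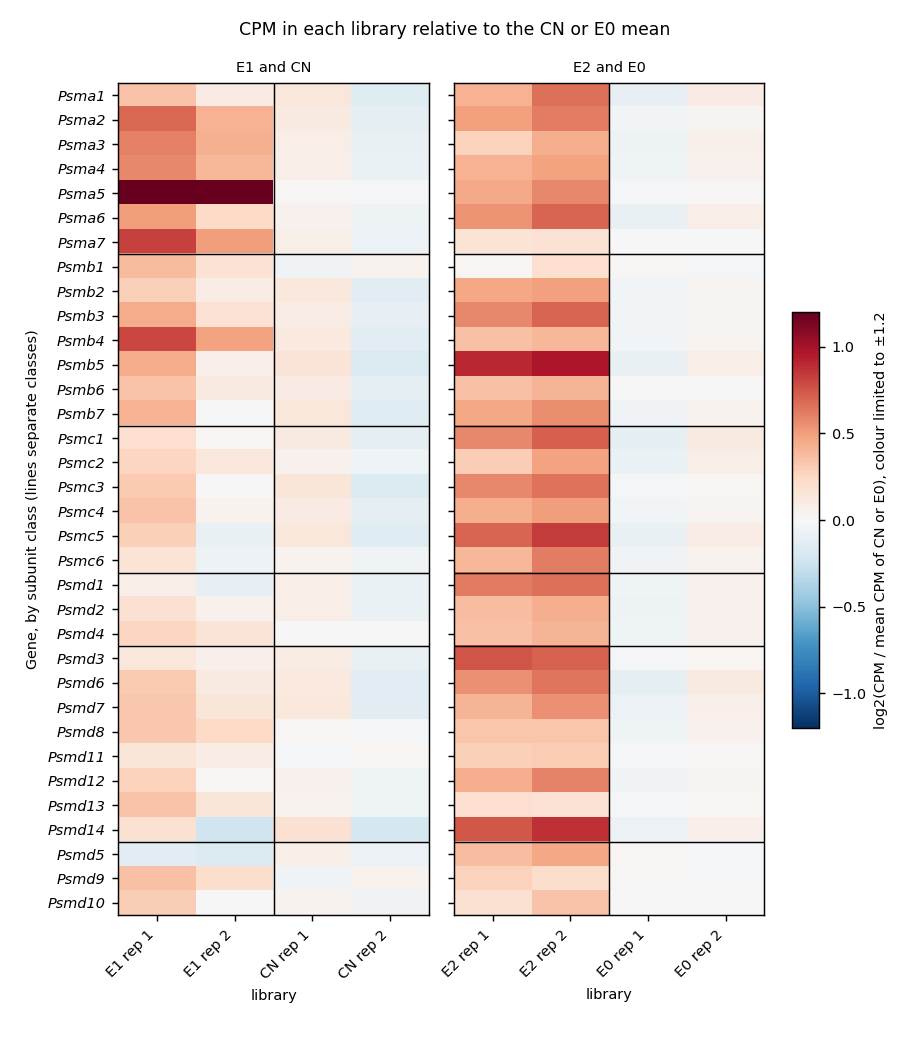
Log2 ratio of the CPM in each library (columns) to the mean CPM of CN (left) or E0 (right), by gene (rows, with lines between subunit classes). E1 replicate 1 is the redder E1 column, Psma5 exceeds the colour limit in both E1 libraries, and both E2 columns stand above the E0 mean in every row.

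The inducible catalytic genes and PA28, which are not among the 34 genes, rose by more than any of them in E1. Psmb8 had 684 and 532 CPM in E1, against 93.5 and 82.0 CPM in CN. Psmb9 had 543 and 454 CPM in E1, against 53.7 and 59.8 CPM in CN. Psmb10 had 473 and 344 CPM in E1, against 36.2 and 32.8 CPM in CN. All 3 inducible catalytic genes were thus several times higher in both E1 libraries: the changes were 2.79 ± 0.14, 3.13 ± 0.10 and 3.57 ± 0.15 on the log2 scale (adjusted p = 3.85e-06, 3.08e-07 and 1.28e-06). The PA28 genes rose too, Psme1 5.27-fold (537 and 445 CPM in E1, against 96.3 and 90.2 CPM in CN) and Psme2 8.04-fold (497 and 370 CPM in E1, against 56.9 and 51.0 CPM in CN). Psmb11, the thymic catalytic subunit, had 0.215 and 0.300 CPM in E1, against 0.158 and 0.132 CPM in CN, and was not called, so that 5 of the 6 genes of this list rose.

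Set per kilobase of exon against the constitutive gene of the same catalytic place, the inducible transcript made up 87.2% ± 0.154 of the pair in E1 and 47.7% ± 4.48 in CN for Psmb9 with Psmb6 (SD, n = 2 each). It made up 89.0% ± 0.227 in E1 and 44.5% ± 1.75 in CN for Psmb10 with Psmb7, and 83.9% ± 0.149 in E1 and 47.6% ± 1.72 in CN for Psmb8 with Psmb5. No share of an E1 library overlapped one of a CN library. In the other experiment the shares were lower in E2 than in E0: 30.3% ± 0.484 in E2 and 41.7% ± 0.379 in E0 for Psmb9 with Psmb6, 32.3% ± 0.00386 in E2 and 40.04% ± 0.781 in E0 for Psmb10 with Psmb7, and 32.1% ± 1.27 in E2 and 46.3% ± 0.773 in E0 for Psmb8 with Psmb5. The level of a share depends on the exon length, as with the full annotation the pair of Psmb8 and Psmb5 gave 71.5% in E1, 30.5% in CN, 18.6% in E2 and 29.3% in E0. The pair of Psmb10 and Psmb7 gave 94.8% in E1, 64.5% in CN, 51.9% in E2 and 60.2% in E0, so that Psmb10 was then the higher gene of its pair in all 4 groups. The pair of Psmb9 and Psmb6 gave 85.5% in E1, 44.2% in CN, 27.4% in E2 and 38.2% in E0. For all 3 pairs the direction within each experiment was the same with both lengths.

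**Figure D3:**
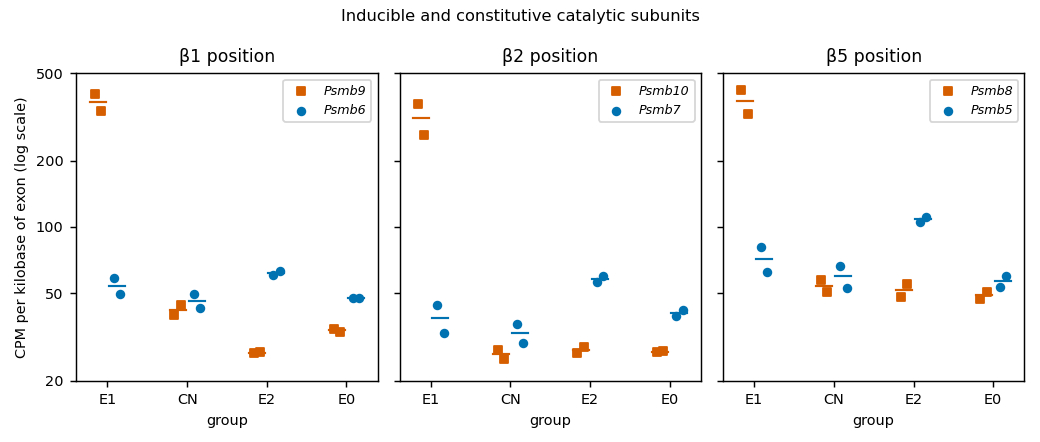
CPM per kilobase of the basic exon set (y axis, log scale) of the inducible (squares) and constitutive (circles) gene at each of the 3 catalytic places, by group (x axis). Points are libraries and lines are means of 2. The squares are highest in E1, and in E2 the circles stand above the squares at every place, an order that turns for Psmb10 and Psmb7 with the full exon length.

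The comparison of E2 with E0 asked which of the transcripts differed when GM-CSF, IL-4 and IL-33 were given with IL-5. Here nearly the whole set rose: 29 of the 34 genes were called higher in E2 and 0 lower, where 17.0% of all genes were higher and 18.5% lower (edgeR, Benjamini-Hochberg adjusted p below 0.05). By class, 6 of 7 alpha genes, 6 of 7 beta genes, 6 of 6 ATPase genes, 3 of 3 other base subunits, 7 of 8 lid genes and 1 of 3 base chaperones were called. Fewer of the 34 genes were called when 1 library of E2 or E0 was left out. The counts of all classes but the other base subunits were smaller in at least 1 of these fits. Such a fit leaves 1 library in that group, and it called fewer of all genes too. In every fit without 1 library the log2 fold changes of the 34 genes stayed positive, the lowest being 0.027 for Psmb1. With all libraries, log2 fold changes ran from 0.12 to 0.94, with a median of 0.48 against -0.02 over all genes. In all 34 genes both E2 libraries stood above both E0 libraries, as they did in 35.9% of all genes, and in 37.2% of all genes both lay below. At an unadjusted p below 0.05, 31 were higher and 0 lower, and DESeq2 and limma-voom each called 29 higher and 0 lower. Of all genes, DESeq2 called 18.0% higher and 18.7% lower, and limma-voom 17.6% and 18.1%.

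The largest rise was in Psmb5 (ENSMUSG00000022193, chromosome 14, 54614119 to 54618022, minus strand), the chymotrypsin-like subunit. It had 95.1 and 99.9 CPM in E2, against 48.0 and 53.9 CPM in E0. Both E2 libraries lay far above both E0 libraries, a change of 0.94 ± 0.15 or 1.91-fold (edgeR, adjusted p = 0.00185). Its exon contains the microRNA gene Mir686, which held 27.6 counts for every 100 of Psmb5, and reads of the pair may be split between them. Psmb7, the trypsin-like subunit, had 65.1 and 69.1 CPM in E2, against 45.7 and 48.4 CPM in E0 (0.51 ± 0.14, adjusted p = 0.0260). Psmb6, the caspase-like subunit, had 48.0 and 50.2 CPM in E2, against 37.8 and 37.7 CPM in E0 (0.38 ± 0.11, adjusted p = 0.0251). All 3 constitutive catalytic genes were thus higher in both E2 libraries. Over the fits without 1 library, log2 fold changes ran from 0.35 to 0.41 for Psmb6 and from 0.47 to 0.55 for Psmb7. The calls of both were not made in every such fit.

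Among the other beta genes Psmb3, a subunit without protease activity, had 70.6 and 76.8 CPM in E2, against 46.5 and 48.5 CPM in E0. It rose 1.55-fold with no overlap (0.63 ± 0.11, adjusted p = 0.00268). Psmb2 rose 1.40-fold and Psmb4 1.30-fold. Psmb1 was not called, with 81.1 and 91.9 CPM in E2, against 80.2 and 79.1 CPM in E0 (0.12 ± 0.09, adjusted p = 0.327).

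In the alpha ring, Psma6 had 95.4 and 107 CPM in E2, against 61.8 and 69.7 CPM in E0 (0.62 ± 0.11, adjusted p = 0.00285). Psma2 had 102 and 111 CPM in E2, against 71.0 and 74.3 CPM in E0 (0.55 ± 0.11, adjusted p = 0.00556). Both rose about alike, 1.54-fold and 1.47-fold. Psma5, which led the change in E1, had 43.6 and 47.5 CPM in E2, against 31.7 and 32.1 CPM in E0, a rise of 1.43-fold (0.51 ± 0.08, adjusted p = 0.00212). Psma7 was the alpha gene not called, with 81.2 and 81.8 CPM in E2, against 73.1 and 72.3 CPM in E0 (0.17 ± 0.10, adjusted p = 0.242).

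In the regulatory particle, the 6 ATPase genes rose by 0.39 to 0.77 on the log2 scale. Over the fits without 1 library their log2 fold changes stayed between 0.30 (Psmc2) and 0.86 (Psmc5). The calls of Psmc2, Psmc3, Psmc4 and Psmc6 were not made in every such fit. Psmc5 had 60.9 and 67.2 CPM in E2, against 35.2 and 39.9 CPM in E0 (0.77 ± 0.15, adjusted p = 0.00499). Psmc1 had 74.4 and 82.0 CPM in E2, against 46.1 and 53.7 CPM in E0 (0.65 ± 0.12, adjusted p = 0.00359). Both E2 libraries lay well above both E0 libraries for each. Psmd1, the large scaffold of the base, had 94.7 and 97.5 CPM in E2, against 59.4 and 63.6 CPM in E0, a rise of 1.56-fold (0.64 ± 0.09, adjusted p = 0.00100). Psmd2, the other large scaffold, had 154 and 161 CPM in E2, against 115 and 124 CPM in E0, a rise of 1.32-fold (0.40 ± 0.08, adjusted p = 0.00523). Psmd4, a ubiquitin receptor, rose 1.30-fold.

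In the lid, Psmd14, the deubiquitinase that removes ubiquitin chains from substrates, had 77.9 and 85.2 CPM in E2, against 44.4 and 48.6 CPM in E0 (0.81 ± 0.17, adjusted p = 0.00658). Psmd3 had 86.0 and 83.4 CPM in E2, against 50.1 and 51.8 CPM in E0 (0.73 ± 0.08), and its adjusted p of 0.000297 was the smallest of the 34. These lid genes rose 1.75-fold and 1.66-fold with no overlap. Psmd6, Psmd12 and Psmd7 rose 1.51-fold, 1.43-fold and 1.40-fold, and Psmd8 and Psmd11 1.26-fold and 1.23-fold. A non-coding gene, A730017L22Rik, shares a stretch of 97.9% identity with Psmd11 and held 15.1 counts for every 100 of it. Psmd13 was not called (0.19 ± 0.08, adjusted p = 0.0942), with 87.2 and 85.4 CPM in E2, against 74.6 and 77.0 CPM in E0. Of the base chaperones, Psmd5 rose, with 38.3 and 40.8 CPM in E2, against 30.1 and 29.1 CPM in E0 (0.42 ± 0.09, adjusted p = 0.00742), a call lost without E2 replicate 2. Psmd9 (0.24 ± 0.11) and Psmd10, also known as gankyrin (0.27 ± 0.11), were not called.

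Summed CPM rose by similar ratios in each class, 1.47 for the ATPase ring, 1.39 for the beta ring and for the lid, 1.38 for the alpha ring, 1.37 for the other base subunits and 1.27 for the base chaperones. The 34 genes together had 2446 and 2612 CPM in E2, against 1756 and 1869.5 CPM in E0. A fit without 1 library of E2 or E0 leaves 1 library in that group, and it called fewer of all genes as well. Leaving out 1 library at a time gave 15 (without E2 replicate 2) to 30 (without E1 replicate 1) genes called higher, and 17 without E0 replicate 1. In all 8 of those fits 14 of the 29 calls were made, and the other 15 were each lost without 1 or more of the E2 and E0 libraries. The eosinophil markers summed to 2551 and 2513 CPM in E2, against 4189 and 3803 CPM in E0, with 1 of 9 called higher and 7 lower. The monocyte and macrophage markers summed to 3746 and 3577 CPM in E2, against 2529 and 2515 CPM in E0. Of these, 3 of 8 were higher (Adgre1, Csf1r and Cd14) and 5 lower (Ly6c2, C1qb, C1qc, Mrc1 and Cd68). The neutrophil markers summed to 869 and 1253 CPM in E2, against 1431 and 2328 CPM in E0, with 3 of 9 lower. The part of these markers in the proteasome result was not tested. Within these groups replicate 1 was lower than replicate 2 for most of the 34 genes, being the higher one in 4 of 34 in E2 (median log2 ratio -0.09) and 6 of 34 in E0 (median -0.08).

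The promoters of Psmb5 and Psma5, which led the E2 and the E1 response, are shown because NRF1 is known to bind antioxidant response elements in proteasome promoters. They are RefSeq sequence of build GRCm38.p6, positions -250 to -31 from the annotated start, on the strand of the gene. Capitals mark the letters TGACNNNGC, the core of that element. Psmb5 lies on the minus strand, at chr14:54618026-54618245, and Psma5 on the plus strand, at chr3:108256676-108256895, where neither strand of the printed stretch holds the core.
Psmb5: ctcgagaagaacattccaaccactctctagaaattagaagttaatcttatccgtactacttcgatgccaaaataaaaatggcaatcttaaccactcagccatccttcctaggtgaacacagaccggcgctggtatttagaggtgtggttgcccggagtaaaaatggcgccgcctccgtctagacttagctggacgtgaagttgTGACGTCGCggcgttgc
Psma5: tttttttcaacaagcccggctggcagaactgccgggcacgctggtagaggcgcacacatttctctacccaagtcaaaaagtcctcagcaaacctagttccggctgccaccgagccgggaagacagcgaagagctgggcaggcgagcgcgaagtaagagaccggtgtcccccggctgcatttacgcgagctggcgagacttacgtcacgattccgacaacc

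The core in Psmb5 lay at -47 to -39. RefSeq promoter windows, 30 in all, were matched for 28 of the 34 genes. Here and below, a gene was counted if any of its windows held the letters, while the share over all genes is per window. In the 250 bases before the start 5 of the 28 held TGACNNNGC on either strand, where 10.2% of the 32851 windows of all genes did. The matches are listed as they read on the strand of the gene, 2 of them being on the other strand.
Psmb5: TGACGTCGC
Psmb6: TGACGGAGC
Psmd9: TGACCCCGC
Psmc6: GCTAAGTCA
Psmd12: GCTGTGTCA

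In E2 over E0 these 5 genes had log2 fold changes of 0.94 (Psmb5), 0.52 (Psmd12), 0.51 (Psmc6), 0.38 (Psmb6) and 0.24 (Psmd9, not called), around the median of 0.48 of the 34 genes. The fuller form TGACTCAGC was in 0 of the 28 and in 0.39% of all windows. CCAAT, the letters bound by NF-Y, was in 11 of the 28 and in 33.8% of all windows. The interferon-stimulated response element, searched as GAAA, any 2 bases and GAAA again, was in 3 of the 28 and in 2.98%. These motifs were searched on both strands and TGACTCAGC is a case of TGACNNNGC, while the others are not contained in one another.

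The difference of the responses, E2 over E0 minus E1 over CN on the log2 scale, was tested in the same fit, and the experiments differ in more than their cytokines. The response was larger in E2 for 6 of the 34 genes and smaller for 2, where the difference was called positive for 11.3% and negative for 14.0% of all genes. The 6 lay in the beta ring, ATPase ring, base, lid and base chaperones, and the 2 in the alpha ring. Those counts are from the fit without a term for the replicate. With that term 20 of the 34 responses were larger in E2 and 3 smaller, where 20.2% and 22.7% of all genes were.

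Psma5 had the largest difference, -1.33 ± 0.12 (edgeR, adjusted p = 0.000126), since it rose 1.43-fold in E2 and 3.59-fold in E1. Psma7 differed by -0.50 ± 0.14 (adjusted p = 0.0362). On the other side stood Psmd14 at 0.82 ± 0.23 (adjusted p = 0.0351), Psmb5 at 0.67 ± 0.21 (adjusted p = 0.0467), Psmd1 at 0.65 ± 0.12 (adjusted p = 0.00653) and Psmd3 at 0.64 ± 0.11 (adjusted p = 0.00411). In E1 the lid and base genes among these were not called. Psmd14 had 41.4 and 30.8 CPM in E1, against 41.4 and 31.4 CPM in CN, and Psmd1 had 51.2 and 45.2 CPM in E1, against 51.1 and 45.7 CPM in CN. Psmd3 had 63.0 and 59.9 CPM in E1, against 61.0 and 53.8 CPM in CN. The groups overlapped for all 3, although Psmd3 was higher in E1 within each replicate number. Psmd5 (0.57) and Psmc1 (0.53) made up the 6.

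Psma5, Psmd1 and Psmd3 alone kept the call of a difference in all 8 fits without 1 library. The count of genes with a larger response in E2 was 6 with all libraries and ran from 2 without CN replicate 1 to 9 without E1 replicate 1, with 3 without E1 replicate 2, E0 replicate 1 or E2 replicate 2 and 4 without E0 replicate 2 or E2 replicate 1. The count with a smaller response was 1 or 2, and it was 1 without CN replicate 2, without E1 replicate 1 and without any 1 library of E2 or E0. Psma7 lost its call without each of 6 libraries, and so did Psmb5 and Psmd14, while Psmc1 lost it without each of 5 and Psmd5 without CN replicate 1.

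**Figure D4:**
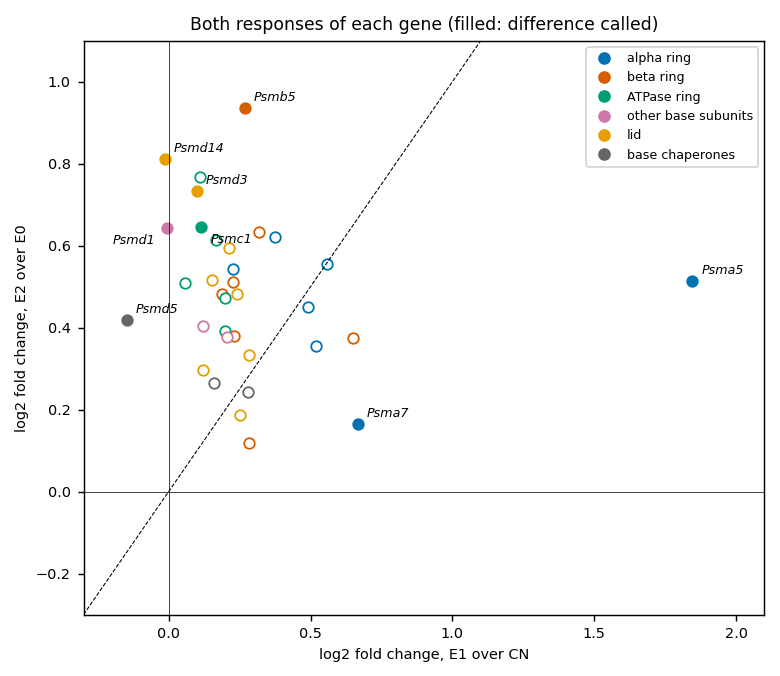
Log2 fold change of each gene in E2 over E0 (y axis) against that in E1 over CN (x axis), coloured by subunit class, with the line of equal change dashed. Filled, named points are the 8 genes whose difference was called: Psma5 and Psma7 lie right of the line, and the other 6 lie left of it.

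Other genes of the pathway were described from lists. Over all genes, 9.19% were called higher and 8.08% lower in E1, and 17.0% and 18.5% in E2. The counts of the lists below were not tested against these shares. Nfe2l1, the gene of NRF1, had 361 and 348 CPM in E2, against 114 and 115 CPM in E0. It rose 3.11-fold (1.64 ± 0.11, edgeR, adjusted p = 2.69e-05), more than any of the 34 subunit genes in that comparison. In E1 it had 165 and 196 CPM, against 148 and 178 CPM in CN, overlapping and not called (0.15 ± 0.11), and the difference of the responses was 1.48 ± 0.15 (adjusted p = 0.000270). Its relative Nfe2l2, which encodes the oxidative stress factor NRF2, rose in E1 (0.48 ± 0.08, adjusted p = 0.00489), with 172 and 159 CPM in E1, against 122 and 117 CPM in CN. The genes of enzymes that process NRF1 fell in E1, Ddi2, a protease, by 0.33 and Ngly1, a glycanase, by 0.32 on the log2 scale. Nfe2l3, a low-level relative, fell by 1.06 in E2, with 1.01 and 0.836 CPM in E2, against 2.24 and 1.62 CPM in E0. Of this list of 6, 1 rose and 2 fell in E1. In E2, 1 rose and 1 fell, near the shares of 17.0% and 18.5% over all genes.

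Of the chaperones that assemble the core, Pomp rose in both comparisons. It had 78.1 and 57.9 CPM in E1, against 30.9 and 26.1 CPM in CN (1.25 ± 0.17, adjusted p = 0.00139). In the other experiment it had 48.7 and 55.6 CPM in E2, against 30.1 and 37.8 CPM in E0 (0.62 ± 0.17, adjusted p = 0.0233). Psmg4 rose 1.90-fold in E1, with 9.64 and 7.59 CPM in E1, against 4.67 and 4.42 CPM in CN (0.92 ± 0.16, adjusted p = 0.00421). Of the 5 core chaperones 2 rose in E1 and 1 in E2. Of the other activators and the inhibitor, 3 genes, Psmf1 (the inhibitor PI31) rose 1.26-fold in E1 and had 0.01 ± 0.09 in E2. In E2 Psme3 had 0.19 ± 0.07 and Psme4 -0.09 ± 0.07, and neither was called.

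Of 7 further subunits and bound proteins measured, 3 rose in E2, while in E1 all 7 lay between 0.01 and 0.32 on the log2 scale without a call: Sem1, a small lid subunit, rose 1.48-fold, Usp14, a deubiquitinase of the base, 1.44-fold, and Adrm1, a ubiquitin receptor, 1.26-fold. Of 10 shuttles and p97 partners, 1 rose and 1 fell in E1, near the shares of 9.19% and 8.08% over all genes. In E2, 6 rose and 1 fell, where 17.0% and 18.5% of all genes did. Rad23b, a shuttle that carries ubiquitinated proteins to the proteasome, rose in both (0.30 in E1 and 0.54 in E2), Zfand2a rose in E2 (0.45), Ubqln2 fell by 0.64 in E2, and Zfand5 fell by 0.32 in E1. Of the ubiquitin genes, Ubb rose in both comparisons (0.44 in E1 and 0.32 in E2). Rps27a, which encodes ubiquitin joined to a ribosomal protein, fell by 0.88 in E2. It had 183 and 189 CPM in E2, against 359.5 and 326 CPM in E0, so that both E2 libraries were the lower.

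In E2 over E0 the 5 inducible genes differed among themselves: 1 rose, 1 fell and 3 were not called. Psmb9 fell by 0.34, with 36.0 and 36.4 CPM in E2, against 46.2 and 45.1 CPM in E0 (adjusted p = 0.0228). Psme2 rose 1.44-fold, with 69.4 and 75.5 CPM in E2, against 47.2 and 53.4 CPM in E0 (adjusted p = 0.0178). Psmb8, Psmb10 and Psme1 had log2 fold changes of 0.07 ± 0.13, 0.02 ± 0.13 and 0.06 ± 0.09 and were not called. Psmb8 had 78.2 and 89.2 CPM in E2, against 76.6 and 82.4 CPM in E0. Psmb10 had 35.0 and 37.2 CPM in E2, against 35.3 and 35.7 CPM in E0, so that the groups overlapped for both. The difference of the responses was called negative for all of these 5 genes, from -3.54 for Psmb10 to -2.34 for Psme1.

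The counts of 12 of the 34 genes can be touched by another gene in the table that matches their transcript over at least 100 bases at 95% identity or more. These were pseudogenes or non-coding copies, as for Psma5 and Psmd11, or overlapping neighbours. Among the neighbours, Nek6 held 188 counts for every 100 of Psmb7, Slc39a13 33.4 for every 100 of Psmc3, Sirt3 24.3 for every 100 of Psmd13, and Gm21972 15.6 for every 100 of Psmd1. How such reads were counted is not given in the sources used here.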

How the data were processed

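Sequencing libraries from 8 eosinophil cultures (TruSeq Stranded mRNA kit, per the labels' protocols) were counted per gene. The authors deposited raw counts, made with STAR and featureCounts on mm10, per the submitters' processing notes, with versions, annotation and strand setting not given in the sources used here. An unnamed row equal to the column totals (100% of the counts of named genes) was left out. Genes were tested in edgeR 4.0.16 (R 4.3.3): filterByExpr (4 genes removed, 15913 left), TMM scaling, a mean for each group in 1 fit of the 8 libraries (residual degrees of freedom, 4), quasi-likelihood F test, two-sided, Benjamini-Hochberg adjustment over all genes, called below 0.05. The common biological coefficient of variation was 0.147. A count of 0 allows up to 0.0316 to 0.0483 CPM (3 counts), covering counting error only. Alternatives were size factors, library totals, no filter, DESeq2 1.42.0, limma-voom (limma 3.58.1), 4 libraries alone, a replicate block and leaving out each library. The fit was tested on simulated data, with changed genes drawn from all genes above 1 CPM. It called 34% of 1.5-fold changes in E1 over CN and 36% in E2 over E0. Of 2-fold changes it called 68% and 84%. A gene not called may thus have changed by a small amount. Symbols matched 15730 IDs. Positions and exon lengths (basic set) are from GENCODE M21 on mm10. Near copies were sought with BLAST+ 2.17.0.

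The members and gene lists were chosen with earlier results of these data known. Named were the catalytic subunits, up to 2 called genes a class and direction with the largest change in each comparison, up to 4 for the difference, and up to 3 from each other list. Every member is given singly or in its class's range. A few list members and 1 motif are not reported here.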

Additional observations from a re-analysis of the deposited data

How the results depend on the processing

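Genes called higher in E1 numbered 8 in the reported fit, 9 with DESeq2's size factors, 6 with library totals, 8 with no filter, 11 with DESeq2, 8 with limma-voom and 7 with the 4 libraries alone, and in E2 they numbered 29, or 32 with the 4 libraries alone. The shares of all genes called higher in E1 were, in the same order, 9.19%, 9.45%, 7.48%, 9.19%, 10.8%, 9.39% and 7.66%. In E2 they were 17.0% and 19.8%. Every fit without 1 library called fewer of all genes higher in E1 than the reported fit. Leaving out 1 library gave 5 to 11 in E1, 15 to 30 in E2, and 2 to 9 larger and 1 to 2 smaller responses in E2 than in E1. With library totals 1 smaller response was called, and the median of all genes in E1 over CN was -0.11 in place of -0.01. With a replicate block inside either experiment, 23 genes were higher in E1 (2786 of all 15913 genes). They were 7 alpha, 7 beta, 3 ATPase, 1 other base, 4 lid and 1 base chaperone genes. All beta genes were thus called under the block, Psmb5, Psmb6 and Psmb7 among them. The lack of calls in the base and its chaperones in E1 did not hold under the block either. With the same block 32 were higher in E2 (4145), 20 responses were larger (3212) and 3 smaller (3609). The labels do not say what a number means, but in every group replicate 1 carried Y-linked transcripts and replicate 2 Xist. With 2 pairs a comparison, the deviations of same-numbered libraries correlated at 0.453 between E1 and CN and 0.484 between E2 and E0 over 12757 autosomal genes. Small uncalled changes reversed sign. In E1 over CN, Psmc6 was -0.037 with library totals. Psmd1 was 0.0040 with size factors and with DESeq2 and 0.0085 with the 4 libraries alone, where Psmd14 was 0.00011. Without 1 library, Psmc5 ran from -0.092 to 0.29, Psmc6 from -0.058 to 0.16, Psmd1 from -0.099 to 0.091 and Psmd14 from -0.24 to 0.21. In E2 over E0, Psmb8 ran from -0.024 to 0.17 and Psmb10 from -0.019 to 0.068, negative without E2 replicate 2. The causes were not tested. With 2 libraries a group, 1 of which is alone when the other is left out and is assumed to vary like the other groups, the smallest changes called were 0.28 in E1 and 0.30 in E2 on the log2 scale. The lowest of the 34 genes, Psmd9, had 8.98 CPM or more in every library, far above the level of 3 counts.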
